A study of Homo sapiens with 6 samples.

Results

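AP-1 and immediate early transcription factors were followed from parental to persister lung cancer cells through 10 genes of the 36459 gene symbols in the table of counts. The members were taken by symbol, by a rule that did not use their values but was set with earlier results of these data known. They were the 4 FOS genes (FOS, FOSB, FOSL1 and FOSL2), the 3 JUN genes (JUN, JUNB and JUND), EGR1 and EGR3, and IER3. RNA was sequenced from PC9 cells, an established human non-small cell lung cancer (NSCLC) line, labelled parental, and from PSPC9 cells, the persister cells left when PC9 cells were kept for 6 days with erlotinib at 15 µM. Erlotinib blocks the kinase of EGFR, the receptor that drives this line. Each condition had 3 libraries. The PC9 libraries came from 3 independent cultures and the PSPC9 libraries were pooled from 9, so the spread among PSPC9 libraries is one of pools. All the cells were of a single line, and no further allele, agent or vehicle is given for either condition. The comparison asked which genes separate the persister from the parental state.

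AP-1 is not a single protein but a set of dimers. A FOS protein pairs with a JUN protein through a leucine zipper, and the basic region beside the zipper holds DNA at the AP-1 site. JUN proteins can also pair with each other, whereas FOS proteins need a partner. FOS, FOSB, JUN, JUNB, EGR1, EGR3 and IER3 are classic immediate early genes, copied within minutes of a growth factor signal from transcription factors that are already present and that ERK and its downstream kinases activate. FOSL1 and FOSL2 respond later and for longer, and lack the strong activation domain of FOS and FOSB. EGR1 and EGR3 are zinc finger factors that bind GC-rich sites, and IER3 encodes a small protein tied to cell survival and ERK signalling.

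The members did not move as 1 block. FOS, FOSB and EGR1 fell in PSPC9, FOSL2 rose over 2-fold, and FOSL1, JUN, JUND and IER3 rose by less, while JUNB fell. EGR3 was too low to test. Of the 9 members that passed the filter on low counts, 5 were higher and 4 lower in PSPC9 at an adjusted p under 0.01 in edgeR's quasi-likelihood test, against 28.7% of all 14626 tested genes higher and 28.1% lower. The 3 PSPC9 libraries lay above all 3 PC9 libraries for 5 members and below them for 4, against 35.5% and 35.7% of all tested genes. The median size of the log2 fold change, in either direction, was 0.53 over the tested members and 0.33 over all tested genes. The median signed log2 fold change was 0.14 and -0.01, respectively. With so many genes called, a call alone does not set a member apart, and sizes are given with each one. All 6 markers of the epithelial line (EPCAM, CDH1, KRT8, KRT18, KRT19 and EGFR) were expressed. Their summed level was 6200 to 6574 CPM (read counts scaled to a common, TMM-normalised library total) in PC9 and 4230 to 4379 CPM in PSPC9. They did not move together: CDH1 (207 to 314 CPM) and EGFR (618 to 876 CPM) were higher in PSPC9 and the other 4 were lower. The 10 markers of blood, endothelial, fibroblast and mural cells summed to 93.7 to 96.5 CPM in PC9 and 49.1 to 56.2 CPM in PSPC9, with CD3E and COL3A1 at 0 in all libraries. Of the 10, 2 were higher in PSPC9, COL1A1 (10.2 to 28.3 CPM, log2 fold change 1.47, adjusted p = 1.04e-08) and PDGFRB (0.363 to 1.04 CPM, log2 fold change 1.52, adjusted p = 0.00232), and 3 were lower, among them CD68, a lysosomal gene that fell from 74.8 to 21.1 CPM. The part of these markers in the members' changes was not tested. In bulk RNA, fewer cells that express a gene and less RNA of it per cell cannot be told apart.

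**Figure D1:**
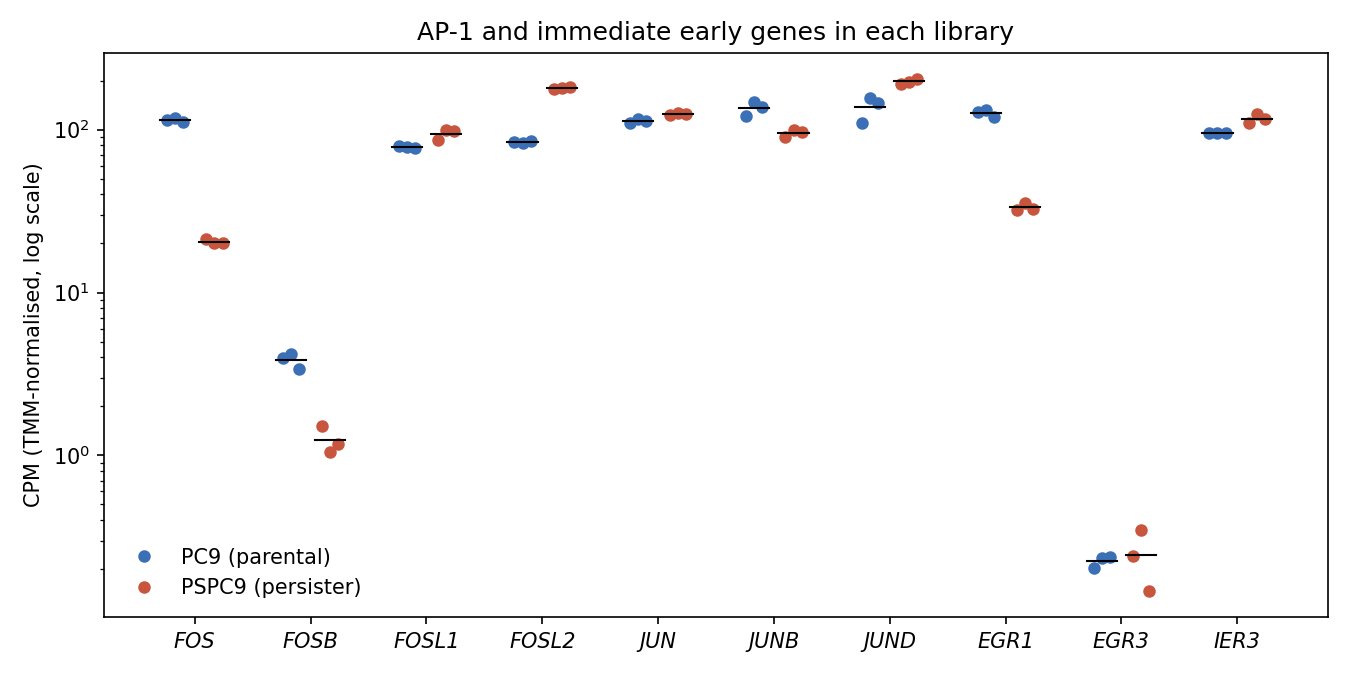
Normalised level of each member in each library, in CPM on a log axis. Points are the 3 PC9 and 3 PSPC9 libraries and bars are group means. FOS, FOSB, EGR1 and JUNB sit lower in all PSPC9 libraries, FOSL2 and JUND higher, and EGR3 lies under 1 CPM in both conditions.

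Promoter sequence is shown for the members with the largest fall (FOS and EGR1) and the largest rise (FOSL2). The transcription of each is known to answer to signals. RefSeq's promoter table for GRCh38.p14 held 7 of the 10 members, and those of FOSL1, EGR3 and IER3 were not used here. Each window printed reaches back to 250 bases before the RefSeq start site and ends before the gene's first annotated coding transcript. Motifs were searched in all 250 bases. Capitals mark matches on either strand to the core of the CRE, the cAMP response element (TGACGT), to the CArG box, where SRF binds, and to the EGR site (GCGNGGGCG). The FOS window is chr14:75278578-75278825 on the plus strand, the EGR1 window is chr5:138465229-138465478 on the plus strand, and the FOSL2 window is chr2:28392608-28392801 on the plus strand, inside an intron of a minor upstream transcript.
FOS: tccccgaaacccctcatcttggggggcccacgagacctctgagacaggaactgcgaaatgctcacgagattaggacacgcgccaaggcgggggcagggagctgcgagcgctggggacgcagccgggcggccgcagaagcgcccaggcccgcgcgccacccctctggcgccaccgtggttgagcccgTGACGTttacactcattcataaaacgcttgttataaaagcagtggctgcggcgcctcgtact
EGR1: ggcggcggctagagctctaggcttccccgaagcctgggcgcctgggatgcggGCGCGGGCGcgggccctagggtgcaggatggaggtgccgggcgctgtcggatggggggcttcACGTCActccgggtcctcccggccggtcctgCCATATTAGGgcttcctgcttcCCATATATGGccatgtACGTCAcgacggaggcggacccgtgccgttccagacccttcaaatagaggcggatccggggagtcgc
FOSL2: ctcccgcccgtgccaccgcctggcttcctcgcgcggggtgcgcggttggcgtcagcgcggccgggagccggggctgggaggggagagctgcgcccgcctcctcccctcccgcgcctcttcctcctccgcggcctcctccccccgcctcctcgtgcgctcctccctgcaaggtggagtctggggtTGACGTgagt

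The CRE core stood at -64 in FOS, -60 in FOSB and -66 in FOSL2, counted back from the RefSeq start site, so nearly the same place held it in members that fell and in one that rose. EGR1 had it at -136 and -67, and JUND had it at -87 and within a full CRE (TGACGTCA) at -200. JUN and JUNB held none. Over the 250 bases before the start site in 35116 promoters, 7.10% held the CRE core, which a full CRE also contains, and 1.65% the full CRE. The pair of CArG boxes of EGR1, at -105 to -96 and -83 to -74, was a match that 1.16% of all promoters had at least once, and its EGR site at -198 to -190 one that 8.41% had. The exact letters TGACTCA of the AP-1 site were in none of the 7 members' 250 bases and in 4.20% of all promoters. Variants of that site were not searched, so their absence is not shown. Bases further upstream were not searched for any motif. A gene without a match here, such as FOS for the CArG box, may hold the site there. These matches are descriptions of letters in a window and show no binding.

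FOS, the founding member of its family and the partner of JUN in the classic AP-1 dimer, is on the plus strand of chromosome 14 from 75278826 to 75282230. Its normalised level was 115, 118 and 112 CPM in PC9 replicates 1, 2 and 3 and 21.3, 20.1 and 20.1 CPM in the PSPC9 replicates. The libraries of each condition lay close together, with a wide gap between conditions. FOS was 5.62-fold lower in PSPC9 (log2 fold change -2.49, standard error 0.046, adjusted p = 2.17e-11, edgeR), and 0.882% of tested genes had a larger fall. FOSB, a close relative of FOS on chromosome 19 (plus strand, 45467995 to 45475179), was expressed far lower, at 3.98, 4.17 and 3.39 CPM in PC9 and 1.51, 1.05 and 1.17 CPM in PSPC9. It fell 3.10-fold (log2 fold change -1.64, standard error 0.17, adjusted p = 6.73e-06), from 114 to 142 reads per PC9 library to 33 to 44 per PSPC9 library, so its fold change is the least precise of the tested members.

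The FOS-related antigens went the other way. FOSL2, which encodes FRA-2 (chromosome 2, plus strand, 28392448 to 28417317), stood at 83.4, 83.2 and 85.4 CPM in PC9 and 177, 180 and 183 CPM in PSPC9. Neither condition spread by more than a few CPM. FOSL2 rose 2.15-fold (log2 fold change 1.10, standard error 0.036, adjusted p = 9.69e-10), and 5.07% of tested genes had a larger rise. FOSL1, which encodes FRA-1, a factor known for its role in invasive carcinoma cells (chromosome 11, minus strand, 65892049 to 65900573), was at 79.4, 78.6 and 76.8 CPM in PC9 and 87.0, 99.2 and 97.6 CPM in PSPC9. The conditions did not overlap, with PSPC9 replicate 1 nearest to the PC9 libraries. FOSL1 rose by 0.27 on the log2 scale (standard error 0.052, adjusted p = 0.000705), a 1.21-fold difference in means.

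JUN, the central partner of the FOS proteins (chromosome 1, minus strand, 58776845 to 58784048), differed least. Its level was 110, 117 and 113 CPM in PC9 and 124, 126 and 124 CPM in PSPC9, higher by 0.14 on the log2 scale (standard error 0.038, adjusted p = 0.00666). That call was lost with upper-quartile factors (0.10, adjusted p = 0.0391), with library size alone (0.09, adjusted p = 0.0690) and when any 1 library other than PC9 replicate 2 was left out, with adjusted p from 0.0154 to 0.0339.

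JUNB and JUND, both on chromosome 19 and both without introns in their main transcript, moved in opposite directions. JUNB, which often counters JUN in growth control (plus strand, 12791486 to 12793315), was at 121, 148 and 138 CPM in PC9 and 90.8, 99.1 and 97.3 CPM in PSPC9. It fell 1.42-fold (log2 fold change -0.50, standard error 0.067, adjusted p = 5.47e-05). JUND, the JUN gene that is expressed steadily in most resting cells (minus strand, 18279694 to 18281622), was at 110, 156 and 146 CPM in PC9 and 190, 198 and 206 CPM in PSPC9. It rose 1.44-fold (log2 fold change 0.53, standard error 0.099, adjusted p = 0.000701). PC9 replicate 1 was the lowest PC9 library for both genes, which widened the spread of JUND to an SD of 23.8 CPM in PC9 against 7.81 in PSPC9. Exons of JUNB overlap those of HOOK2 on the other strand, and whether the counts used strand is not given in the sources used here.

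EGR1 (chromosome 5, plus strand, 138465479 to 138469303) is an immediate early factor that ERK signalling switches on through SRF and its partners. EGR1 fell less far than FOS. It was at 128, 131 and 119 CPM in PC9 and 32.0, 35.5 and 32.6 CPM in PSPC9, 3.79-fold lower (log2 fold change -1.92, standard error 0.054, adjusted p = 3.29e-10). A larger fall was seen in 1.78% of tested genes. EGR3, a relative of EGR1 that is known to be induced by it (chromosome 8, minus strand, 22687659 to 22693480), had 7, 8 and 8 reads in the PC9 libraries and 7, 11 and 5 in the PSPC9 libraries. This was under the filter, the conditions overlapped, and no difference was detectable at this depth.

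IER3, the single member here that is no transcription factor (chromosome 6, minus strand, 30743199 to 30744548), was at 96.0, 95.4 and 94.8 CPM in PC9 and 109, 125 and 116 CPM in PSPC9. The PC9 libraries were nearly equal and all PSPC9 libraries lay above them. IER3 rose by 0.29 on the log2 scale (standard error 0.049, adjusted p = 0.000316). It lies in the MHC region beside antisense RNAs whose exons overlap its own, and only 0.0480% of its gene count was found on transcripts that matched the reference annotation, so its transcripts were not described.

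**Figure D2:**
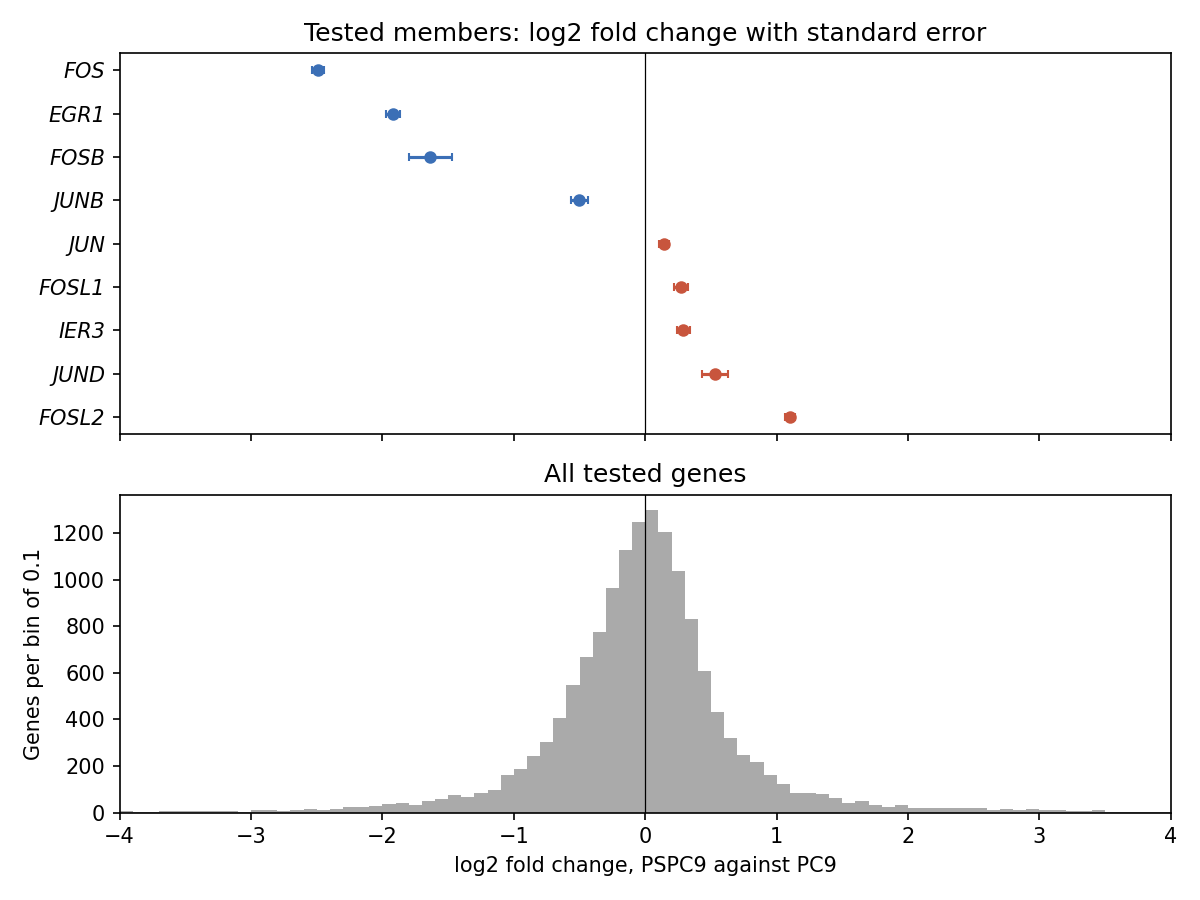
Log2 fold change of PSPC9 against PC9 for the 9 tested members with standard errors from edgeR (upper panel, blue lower and red higher in PSPC9), and the same quantity for all tested genes within -4 to 4, in bins of 0.1 (lower panel). FOS, EGR1 and FOSB lie in the left tail, FOSL2 in the right one, and JUN, FOSL1 and IER3 within 0.3 of 0.

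Levels of different genes were compared per length, as the sum over a gene's transcripts of CPM divided by transcript length in kb (for IER3, its gene count over its longest transcript). In PC9, JUNB (74.1 ± 7.39 CPM per kb, SD, n = 3), JUND (71.3 ± 12.1) and IER3 (70.7 ± 0.454) led, with libraries that overlapped between neighbours in this order. FOS (59.3 ± 2.30) came next, with libraries below all of IER3 and JUNB but around the lowest of JUND (57.6 in PC9 replicate 1). FOSL1 (49.7 ± 0.988), EGR1 (40.3 ± 1.98), JUN (34.8 ± 1.05) and FOSL2 (12.98 ± 0.367) followed, each without overlap with its neighbours. FOSB (1.20 ± 0.173) and EGR3 (0.077 ± 0.038) were far below.

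In PSPC9 the order was JUND (102.6 ± 4.05 CPM per kb, SD, n = 3), IER3 (86.4 ± 5.81), FOSL1 (61.5 ± 4.49), JUNB (52.3 ± 2.39), JUN (38.3 ± 0.412), FOSL2 (27.4 ± 0.619), FOS (11.0 ± 0.328), EGR1 (10.6 ± 0.585), FOSB (0.454 ± 0.146) and EGR3 (0.098 ± 0.053). Among neighbours, FOS and EGR1 alone had overlapping libraries in this condition. By group means, JUNB thus went from the first to the fourth place and FOS from the fourth to the seventh, while FOSL2 passed both FOS and EGR1 in level per length. FOS was 4.55, 4.84 and 4.32 times FOSL2 in the PC9 libraries and 0.419, 0.407 and 0.379 times FOSL2 in the PSPC9 libraries. The corresponding ratio of JUNB to JUND was 1.15, 1.00 and 0.999 in PC9 and 0.503, 0.528 and 0.498 in PSPC9.

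The make-up of the FOS family shifted from FOS to the FOS-related antigens. FOS made up 48.1% ± 0.655 (SD, n = 3) of the family's summed level per length in PC9 and 11.0% ± 0.794 in PSPC9. FOSL1 made up 40.3% ± 0.323 and 61.2% ± 1.83, and FOSL2 10.5% ± 0.456 and 27.3% ± 0.999, respectively. FOSB stayed a minor part, at 0.972% ± 0.118 in PC9 and 0.457% ± 0.170 in PSPC9. The family sum itself was 125, 125 and 119 CPM per kb in PC9 and 95.3, 103 and 103 CPM per kb in PSPC9. Each of these 5 quantities was separated between conditions in all libraries, with p = 0.1 in a two-sided exact permutation test, the smallest p that 3 against 3 libraries allow, so that none could reach 0.05.

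In the JUN family, JUNB and JUND had nearly equal shares in PC9, and JUND had the larger share in every PSPC9 library. The family sum was 158, 197 and 185 CPM per kb in PC9 and 186, 195 and 198 CPM per kb in PSPC9, and the libraries overlapped (exact permutation p = 0.4, two-sided). JUNB made up 41.2% ± 0.700 (SD, n = 3) of it in PC9 and 27.1% ± 0.567 in PSPC9, and JUND 39.4% ± 2.46 and 53.1% ± 0.718 (exact permutation p = 0.1 for each, the smallest possible). JUN made up 19.4% ± 1.78 and 19.8% ± 0.549, overlapping between conditions (exact permutation p = 0.7). All shares are of RNA, and a share moves when any other gene of the family does.

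**Figure D3:**
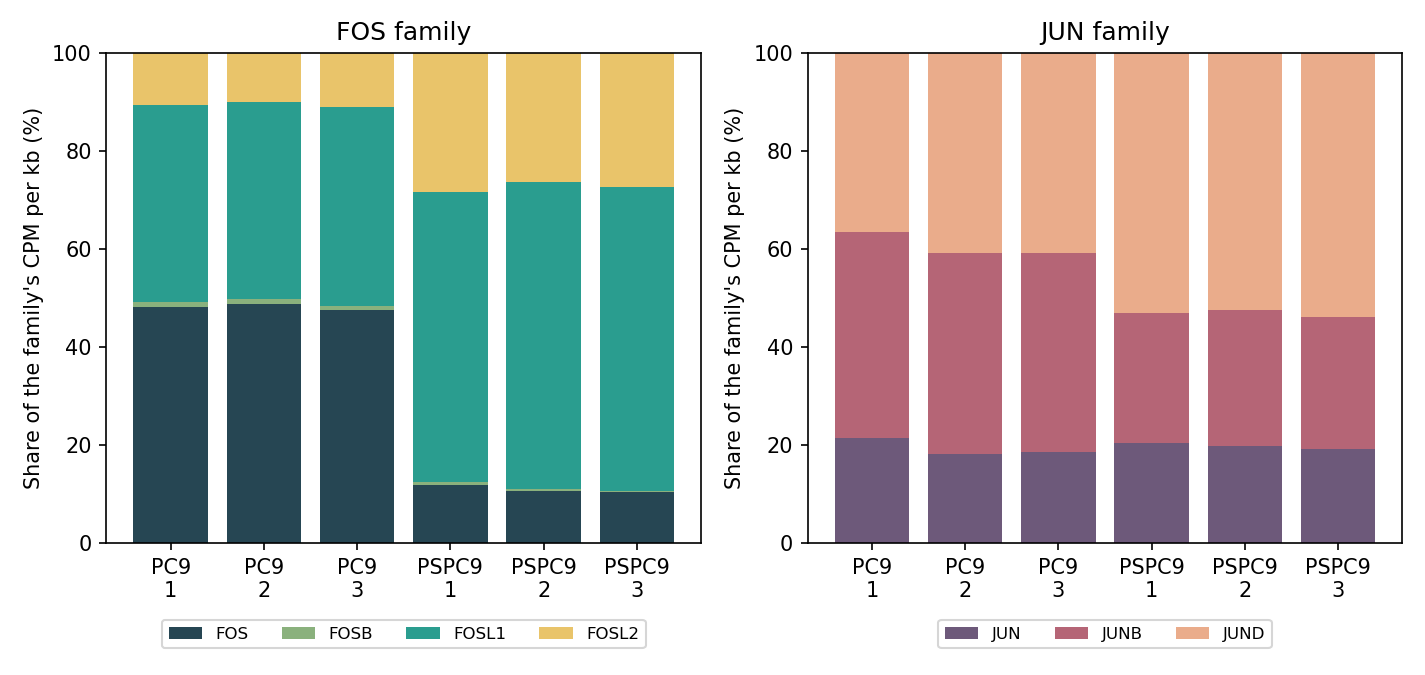
Share of each gene in the summed CPM per kb of its family, in percent, with 1 stacked bar per library (PC9 replicates 1 to 3, then PSPC9 replicates 1 to 3). In the FOS family (left) FOS shrinks from near 48% to near 11% while FOSL1 and FOSL2 grow, and in the JUN family (right) JUNB and JUND are of similar size in PC9 and JUND is the largest part in PSPC9, with JUN near 19% to 20% in the group means.

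Transcripts showed which molecules carried these values. Of 43 annotated member transcripts 19 passed the filter, and at an adjusted p under 0.01 in edgeR's test of all 54499 tested transcripts 2 were higher and 2 lower, against 3.89% and 3.91% of all tested transcripts. FOS-201, the full-length coding transcript, held 91.9% ± 2.04 (SD, n = 3) of the FOS count in PC9 and 88.5% ± 1.95 in PSPC9, and fell by 2.57 on the log2 scale (standard error 0.044, adjusted p = 1.07e-05). EGR1-201 held the whole EGR1 count and fell by 1.95 (standard error 0.061, adjusted p = 3.88e-05). FOSL2-201 held 98.8% ± 0.82 and 96.8% ± 2.10 of the FOSL2 count and rose by 1.05 (standard error 0.039, adjusted p = 6.40e-05). The single-exon transcripts JUNB-201 (adjusted p = 0.0103), JUND-201 (0.0547) and JUN-201 (0.104) held between 99.9% and 100% of their genes' counts and were not called in the transcript test.

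Among the 4 members with more than 1 tested transcript, FOSL1 alone passed the test of transcript make-up. Transcript usage, tested with edgeR's diffSpliceDGE and a Simes p-value per gene, passed an adjusted p under 0.01 in 1.86% of 10545 genes, and FOSL1 was among them (adjusted p = 0.00145 over 4 transcripts). FOS, FOSB and FOSL2 gave an adjusted p of 1.00 each. The transcript with the change was FOSL1-202, with 71, 113 and 118 reads in the PC9 libraries and 392, 423 and 421 in the PSPC9 libraries. It rose by 2.11 on the log2 scale (standard error 0.23, adjusted p = 0.00232). Relative to the change of FOSL1 as a whole, it rose by 1.29 on the natural log scale. Its share of the FOSL1 count was 2.60%, 4.23% and 4.56% in PC9 and 15.4%, 13.5% and 12.6% in PSPC9. The call of FOSL1-202 in the transcript test was lost in 5 of the 6 fits that left out a library (adjusted p between 0.0109 and 0.0144) and was kept without PC9 replicate 1. It was also lost with the replicate number as a block (adjusted p = 0.0241), although the numbers were not taken to pair the libraries.

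FOSL1-201, the main coding transcript, was near 63.4 ± 0.382 CPM (SD, n = 3) in PC9 and 63.9 ± 4.31 CPM in PSPC9 (log2 fold change 0.01, standard error 0.057, adjusted p = 0.939). Its share went from 79.8%, 79.4% and 80.6% of the FOSL1 count to 68.1%, 67.6% and 67.6%. In group means, the rise of FOSL1 thus lay on its other transcripts. FOSL1-203 held 10.5% ± 2.45 and 14.6% ± 2.84, with overlapping libraries (log2 fold change 0.74, adjusted p = 0.117), and FOSL1-204 held 5.74% and 3.73% (log2 fold change -0.39, adjusted p = 0.615).

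The change is one of exons within the coding sequence. FOSL1-201 has 4 exons and 271 codons, on the minus strand of chromosome 11 in the GENCODE 44 annotation of GRCh38. FOSL1-202 joins exon 1 directly to exon 4 and skips exon 2 (65896809 to 65897006) and exon 3 (65894014 to 65894121), which removes 306 bases, or codons 34 to 135, without a shift of frame and leaves 169 codons. A search of the translated sequences found the conserved signature of the DNA-binding basic region once in FOSL1-201, at codons 115 to 123 within exon 3, and not in FOSL1-202. The junctions that separate the transcripts are shown with 20 bases on each side, on the strand of the gene, with the exon that follows exon 1 in capitals. The FOSL1-201 junction runs from 65900241 to 65897006 and that of FOSL1-202 from 65900241 to 65893296.
FOSL1-201: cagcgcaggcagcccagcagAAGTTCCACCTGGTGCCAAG
FOSL1-202: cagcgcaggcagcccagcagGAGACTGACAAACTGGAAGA

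FOSL1-203 lacks exon 3 but keeps exon 2. Together the transcripts without exon 3 took 15.9%, 13.6% and 13.4% of the FOSL1 count in the PC9 libraries and 27.0%, 30.7% and 27.7% in the PSPC9 libraries, a sum that was chosen after its parts had been seen and carries no test. Kallisto assigns reads that several transcripts share by a model, and the uncertainty of that assignment is not in the counts. The level of the proteins was not measured.

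**Figure D4:**
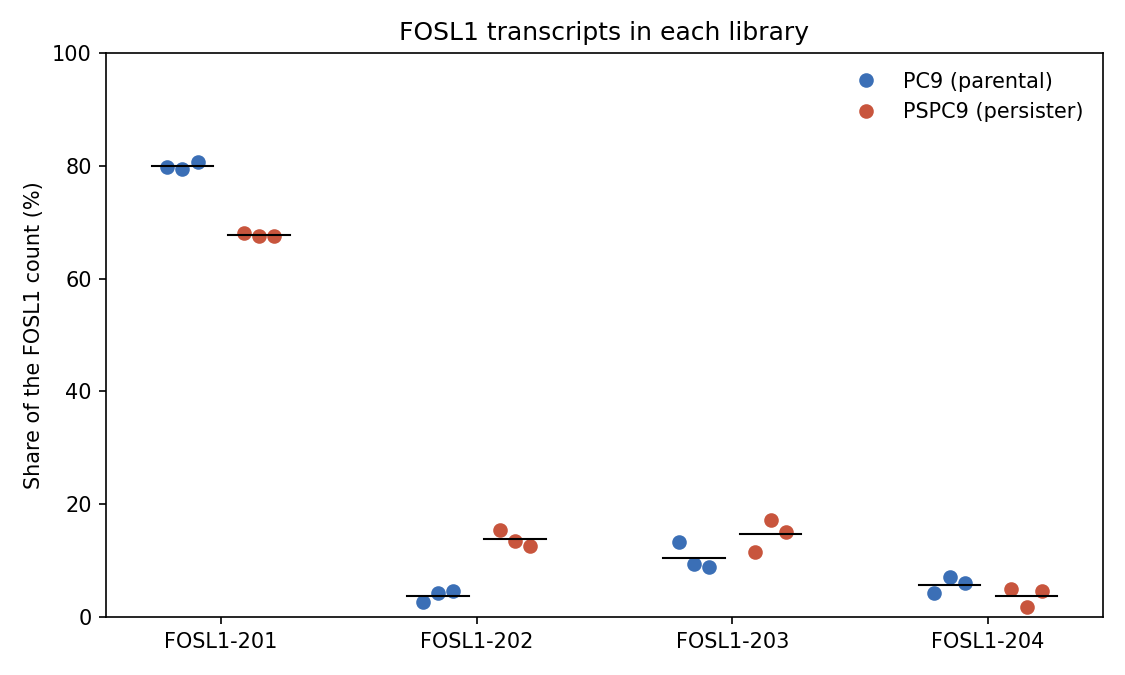
Share of the FOSL1 count assigned to each of 4 transcripts, in percent, with 1 point per library and bars at group means. FOSL1-201 is lower and FOSL1-202 higher in all 3 PSPC9 libraries, and the libraries of FOSL1-203 and FOSL1-204 overlap.

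FOSB, with few reads, gave no stable picture of its transcripts. FOSB-206, which starts inside the gene at 45469913, took 62.8%, 67.6% and 43.9% of the FOSB count in PC9, but 0%, 51.5% and 0% in PSPC9 (log2 fold change -3.65, standard error 1.46, adjusted p = 0.166). FOSB-201, the full-length transcript, took 19.0%, 0% and 19.3% in PC9 and 9.30%, 0% and 57.5% in PSPC9 (adjusted p = 0.816). Reads moved between these transcripts from library to library within a condition. FOSB-203, FOSB-205 and FOSB-212, each at or above 10% of the count in at least 1 condition, had too few reads to test.

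The genes with the most similar profile were listed for the member with the highest level per length in each family, as a mean of both conditions, by Pearson's r of log2 CPM over the 6 libraries. Such an r mostly reflects the gap between conditions, and it is given as a description. For FOSL1 they were TOX4 (r = 0.999), SLIRP (0.997) and FAM72C (0.992), the last from a family of near-identical copies among which reads can be split. For JUND they were MGAT4B, GRB2 and SENP3 (r = 0.998 for each), and for EGR1 they were DNMBP, AGBL2 and PYGL (r = 1.00 for each after rounding). Of these 9 genes GRB2 alone was not called (adjusted p = 0.0319).

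Other bZIP proteins can take the place of FOS or JUN in a dimer. Of 14 such genes 11 were tested, 7 were higher and 2 lower in PSPC9, against 28.7% and 28.1% of all tested genes, with a median log2 fold change of 0.20 against -0.01. ATF3, a stress-induced partner of JUN proteins, rose from 15.1 ± 0.295 to 45.8 ± 1.54 CPM (SD, n = 3 per condition; log2 fold change 1.60, standard error 0.050, adjusted p = 6.94e-10). CREB5, from the ATF2 group, rose by 1.33 (adjusted p = 1.03e-07), and JDP2, a repressor that pairs with JUN, rose by 0.55 (adjusted p = 1.56e-06). MAFF, a small MAF protein without an activation domain, fell by 1.44 (adjusted p = 5.84e-07) and BATF, a FOS-like partner of JUN proteins best known from lymphocytes, fell by 0.85 (adjusted p = 2.96e-07), all on the log2 scale. ATF2 was at 119 CPM in PC9 and 114 CPM in PSPC9 and was not called (adjusted p = 0.332).

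Of 36 other immediate early genes 32 were tested. Of these, 12 were higher and 16 lower, against 28.7% and 28.1% of all tested genes, with a median log2 fold change of -0.18. PHLDA1 fell from 109 ± 1.48 to 29.7 ± 1.30 CPM (log2 fold change -1.88, standard error 0.045, adjusted p = 1.08e-10), SOCS3, an inhibitor of JAK-STAT signalling, fell by 2.02 (adjusted p = 6.06e-09) and ZFP36, which speeds the decay of AU-rich messenger RNAs including its own, fell by 0.95 (adjusted p = 2.74e-07), on the log2 scale. DUSP1, a nuclear phosphatase of p38, JNK and ERK, rose from 23.3 ± 0.974 to 82.3 ± 1.38 CPM (log2 fold change 1.82, standard error 0.046, adjusted p = 1.67e-10), and CCN1, a secreted matricellular protein, from 185 ± 7.75 to 491 ± 1.77 CPM (log2 fold change 1.41, adjusted p = 2.81e-10). ATF3, described above, also belongs to this list.

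Among 14 genes for factors that control immediate early genes, all of them tested, 7 were higher and 4 lower, with a median log2 fold change of 0.14. Of all tested genes 28.7% were higher and 28.1% lower, a share near that of the lower genes here. The SRF coactivators MRTFA and MRTFB rose by 0.99 (adjusted p = 4.67e-08) and 0.43 (adjusted p = 3.66e-05), and CREM, a factor of the CRE, by 0.65 (adjusted p = 4.39e-06). ELK3, an ETS partner of SRF, fell from 128 ± 7.16 to 70.8 ± 3.90 CPM (log2 fold change -0.86, adjusted p = 1.45e-07), and the EGR1 corepressors NAB1 and NAB2 fell by 0.40 (adjusted p = 0.00106) and 0.52 (adjusted p = 0.00122) on the log2 scale. Both NAB genes are known to restrain EGR1, and NAB2 is itself an EGR1 target.

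Of 22 MAP kinases and their downstream kinases, all tested, 4 were higher, 3 lower and 15 not called, fewer in each direction than the 28.7% and 28.1% of all tested genes, with a median log2 fold change of -0.02. MAPK3, which encodes the kinase ERK1, fell by 0.87 on the log2 scale (105 ± 6.44 to 57.1 ± 2.69 CPM, adjusted p = 1.37e-07). RPS6KA4, a kinase of CREB and histone H3, rose by 0.87 (adjusted p = 1.07e-06) and RPS6KA2 by 0.43 (adjusted p = 2.55e-05), while MAPK13, a p38 kinase, fell by 1.06 (adjusted p = 2.37e-09) and MAP2K5 by 0.25 (adjusted p = 0.00169). Kinase activity was not measured. The feedback genes of ERK signalling moved together: of 9 tested, 8 were lower and none higher, against 28.1% and 28.7% of all tested genes, with a median log2 fold change of -1.42. DUSP6, an ERK phosphatase, fell by 3.68 (adjusted p = 2.22e-10), DUSP5 fell by 2.37 (adjusted p = 2.24e-09) and DUSP4 fell by 1.42 (adjusted p = 1.18e-09), and SPRED1 was not called (log2 fold change -0.18, adjusted p = 0.0271).

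Genes known to carry AP-1 sites were followed as possible targets. Of 28 listed, 27 were in the table and 18 were tested, of which 8 were higher and 6 lower, against 28.7% and 28.1% of all tested genes, with a median log2 fold change of 0.24. IL6, a cytokine gene, rose by 2.57 on the log2 scale (standard error 0.19, adjusted p = 6.63e-07) from a low level of 0.674 ± 0.205 to 4.02 ± 0.246 CPM. The chromatin protein gene HMGA1 fell from 2678 ± 161 to 921 ± 49.8 CPM (log2 fold change -1.54, adjusted p = 1.33e-09), and PLAU, the urokinase gene, and TIMP1, an inhibitor of matrix metalloproteases, fell by 0.85 (adjusted p = 8.70e-09) and 0.75 (adjusted p = 1.64e-06) on the log2 scale. Of the matrix metalloprotease genes that are textbook AP-1 targets, MMP1, MMP3 and MMP12 had no reads in any library, which allows up to 3 reads in each, and MMP9, MMP10 and MMP13 were under 0.25 CPM in both group means and not tested.

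**Figure D5:**
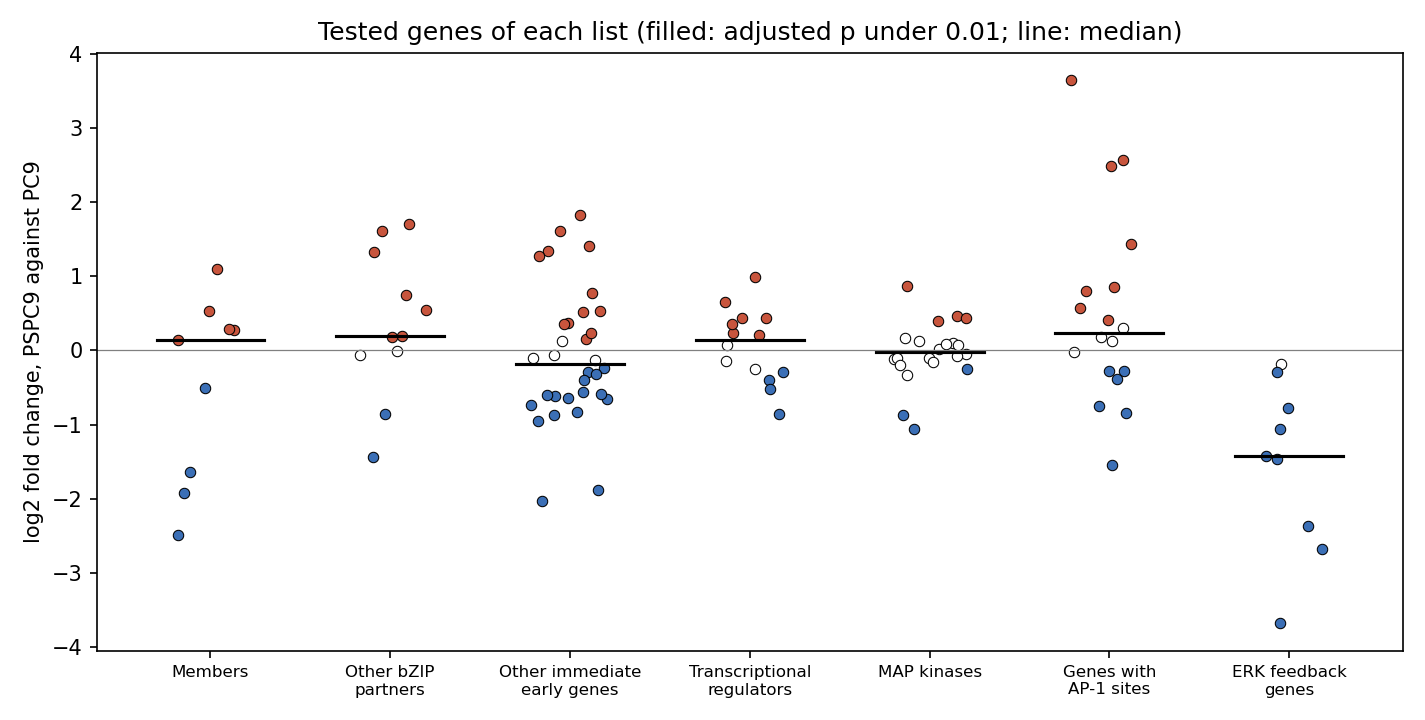
Log2 fold change of PSPC9 against PC9 for each tested gene of the members and of the 6 other lists. Filled points passed an adjusted p under 0.01 (red higher, blue lower), open points did not, and bars are list medians. Members, bZIP partners, immediate early genes and genes with AP-1 sites spread to both sides, and the ERK feedback genes lie at or under -0.18.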

How the data were processed

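RNA-seq of 3 PC9 and 3 PSPC9 libraries was analysed. Conditions and replicate numbers came from the labels, and dose, time and numbers of cultures from the paper. Reads of poly-A TruSeq libraries were pseudoaligned by the authors with Kallisto 0.46.1 to Ensembl transcripts of GRCh38.p13. The authors deposited the estimated counts rounded to integers and not normalized, in a table of genes and a table of transcripts. Libraries of another laboratory that the paper combined with these were not used here. Gene counts summed to between 29476725 and 34893782 per library, and spread between replicates rather than counting error sets the precision. Libraries of a condition differed by more than sampling noise (chi-square per degree of freedom 3.41 to 20.0), so each was kept as a replicate.

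PSPC9 was compared with PC9 by edgeR 4.0.16 in R 4.3.3 (filterByExpr defaults, TMM, no block, glmQLFit followed by glmQLFTest), and p-values were adjusted by Benjamini-Hochberg over all features tested, with a limit of 0.01. Standard errors are the log2 fold change over the square root of F. Transcripts were tested alike, and transcript usage with diffSpliceDGE. Of 188753 transcripts 167067 matched the GENCODE 44 annotation of GRCh38. These steps were tested on simulated data.

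The members and gene lists were chosen with earlier results of these data known, and the lists were written from general knowledge. The text names all members, up to 3 higher and 3 lower called genes with the smallest p and no overlap from each other list, the 3 genes most similar to the leading FOS, JUN and EGR member, and member transcripts with at least 10% of a gene's count. A few genes that meet this rule are left out of the text. ATF2, SPRED1, FOSL1-204 and the MMP genes were added after their values had been seen. Alternatives were other normalizations, filters and limits, DESeq2 1.42.0, voom of limma 3.58.1, sums over the transcript table, a block for the replicate number, and leaving out each library. Figures were drawn with matplotlib 3.10.9.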

Additional observations from a re-analysis of the deposited data

How the results depend on the processing

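FOS, FOSB, FOSL2 and EGR1 kept their direction and their call in all 17 alternative settings, with log2 fold changes from -2.54 to -2.47, -1.79 to -1.53, 1.05 to 1.12 and -1.97 to -1.89, respectively. FOSL1 (0.22 to 0.33), JUNB (-0.58 to -0.44), JUND (0.39 to 0.63) and IER3 (0.24 to 0.34, 16 settings) lost theirs only where a fold change above 2 was also asked, and JUN (0.09 to 0.16) lost its call in 8 settings. With a fold change above 2, 1 member was higher, and the numbers higher and lower were 3 and 1 for bZIP partners, 5 and 2 for other immediate early genes, 0 and 0 for their regulators, 0 and 1 for MAP kinases and 4 and 1 for genes with AP-1 sites. Lower MAP kinases numbered 5 with upper-quartile factors, with library size only and at an adjusted p under 0.05, and between 2 and 5 with a library left out, with 5 without PC9 replicate 1. Higher member transcripts numbered 1 to 2 with a library left out, and 5 were lower at an adjusted p under 0.05. The difference in the JUN share of its family (PSPC9 minus PC9, 0.41 percentage points) ran from -0.213 without PC9 replicate 2 to 1.43 without PC9 replicate 1. The cause of these differences was not tested beyond what each setting changes by construction. Summing from transcripts gave no value for IER3, whose reads lie on unmatched transcripts. Conditions share replicate numbers, but same-numbered libraries deviated together with r = 0.124, 0.024 and 0.022, so the numbers were not taken as pairs. PC9 replicate 2 correlated best with PSPC9 replicate 3 (0.097). With the replicate block 8671 genes were called instead of 8307, 1 member transcript was higher, since FOSL1-202 then had an adjusted p of 0.0241, and the members' calls did not change. EGR3 was not called without the filter (log2 fold change 0.12), at 5 to 11 reads per library, and FOSB transcripts had too few to be resolved.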
